A study of Mus musculus with 6 samples.

Results

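The Igf2r-Airn domain of mouse chromosome 17 was described here through 4 genes: Igf2r, Airn, Slc22a2 and Slc22a3. The members were the cytosines of CpG dinucleotides that all 6 libraries listed inside one of these genes or within 1000 bp of its ends. They numbered 236 of the 2207564 cytosines used over the whole genome. Igf2r held 92, Airn 82, Slc22a2 35 and Slc22a3 107, and 80 of them lay in both Igf2r and Airn, which overlap. The domain was selected on its CSDS minus Control differences, the start of Slc22a2 having been higher in CSDS libraries, so every value of Slc22a2 is given as a description and without a test.

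The study profiled male germ cells by reduced representation bisulfite sequencing (RRBS), in which DNA is cut at a short recognition sequence, treated with bisulfite and read so that an unmethylated cytosine appears as T. The CSDS group held 3 libraries from mice put through chronic social defeat stress, a procedure of repeated defeat by an aggressive mouse. The Control group held 3 libraries from control mice. The labels give no strain, age, stage of germ cell or defeat schedule, and they do not say whether each library came from its own animal, so every p-value measures the spread between these libraries only.

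Igf2r encodes the receptor that binds mannose 6-phosphate and carries insulin-like growth factor 2 to the lysosome, and in most mouse tissues it is expressed from the maternal copy. Airn is a long non-coding RNA that starts in an intron of Igf2r, runs in the opposite direction across the Igf2r start, and on the paternal copy silences Igf2r and, in placenta, Slc22a2 and Slc22a3. The region that controls this imprint lies at the start of Airn, is methylated in the oocyte and is unmethylated in sperm. Slc22a2 and Slc22a3 encode organic cation transporters of the cell membrane.

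In GRCm38 coordinates, Slc22a3 spans chr17:12419972-12507704 on the minus strand, Slc22a2 chr17:12584189-12628489 on the plus strand, Igf2r chr17:12682406-12769706 on the minus strand and Airn chr17:12741311-12859884 on the plus strand. The promoter sequences of the 3 coding genes are shown because they differ in how many CpGs RRBS could read next to the start. Each runs from 250 bases before to 50 bases after the RefSeq start in assembly GRCm38.p6 and is written 5′ to 3′ on the gene's own strand, with every CG in capitals.
Igf2r, chr17:12769657-12769956, minus strand: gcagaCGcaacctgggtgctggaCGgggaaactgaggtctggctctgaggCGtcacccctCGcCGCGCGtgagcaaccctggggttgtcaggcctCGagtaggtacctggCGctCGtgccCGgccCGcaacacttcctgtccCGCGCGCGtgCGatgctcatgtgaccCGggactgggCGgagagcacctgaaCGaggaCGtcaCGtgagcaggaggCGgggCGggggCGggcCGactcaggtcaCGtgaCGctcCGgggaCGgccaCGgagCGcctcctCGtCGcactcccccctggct
Slc22a2, chr17:12583939-12584238, plus strand: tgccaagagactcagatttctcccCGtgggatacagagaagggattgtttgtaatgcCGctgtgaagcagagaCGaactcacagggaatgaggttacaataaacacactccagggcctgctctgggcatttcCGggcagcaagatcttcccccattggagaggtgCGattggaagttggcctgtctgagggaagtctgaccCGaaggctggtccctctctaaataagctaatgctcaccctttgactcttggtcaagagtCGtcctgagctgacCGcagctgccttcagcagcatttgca
Slc22a3, chr17:12507655-12507954, minus strand: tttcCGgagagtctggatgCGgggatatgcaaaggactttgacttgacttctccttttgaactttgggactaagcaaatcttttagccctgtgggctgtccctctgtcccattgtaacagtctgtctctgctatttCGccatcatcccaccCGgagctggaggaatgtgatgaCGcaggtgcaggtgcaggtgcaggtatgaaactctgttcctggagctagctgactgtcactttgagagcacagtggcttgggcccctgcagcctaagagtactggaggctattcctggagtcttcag
The Igf2r promoter held 34 CGs, more than 92.3% of the 32817 RefSeq promoters of this length, whose median was 7. In it 27 cytosines at 19 CpGs were measured, with a mean level of 12.5% in CSDS and 17.9% in Control libraries. The Slc22a3 promoter held 5 CGs, and its 7 measured cytosines at 4 CpGs averaged 13.9% in CSDS and 16.1% in Control libraries. The Slc22a2 promoter held 8 CGs and the Airn promoter 3, and no cytosine of either was measured in all 6 libraries. The sequence CCGG, which reads the same on both strands, occurred 3 times in the Igf2r promoter, 2 times in that of Slc22a3, 1 time in that of Slc22a2 and 0 times in that of Airn, and 52.8% of all RefSeq promoters held it.

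Some facts of the whole data set bear on every value below. The libraries listed between 2420308 and 3156788 cytosines, each read at least 10 times, with median coverages of 44 to 50. Over all cytosines the mean level was 42.6%, 39.5% and 39.7% in CSDS replicates 1 to 3, against 43.2%, 43.4% and 43.1% in Control replicates 1 to 3, and the median difference of a cytosine was -2.17 points. On the mitochondrial genome, which carries little methylation and so bounds incomplete conversion, 8.50%, 4.41% and 4.53% of reads showed C in CSDS replicates 1 to 3 over 27 cytosines, against 8.90%, 8.84% and 10.04% in Control replicates 1 to 3. CSDS replicates 2 and 3 were thus apart from the other 4 libraries in both measures. At 3 control regions that are methylated in sperm, placed by their approximate positions, the library levels lay between 94.5% and 98.5% for H19 (4 cytosines), between 93.3% and 98.5% for Meg3 (11 cytosines) and between 87.6% and 92.0% for Rasgrf1 (6 cytosines).

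Along the domain, most cytosines were either nearly unmethylated or nearly fully methylated, and Slc22a2 was the member gene that stood between. Of the 201 member cytosines outside Slc22a2, 115 averaged under 20%, 75 over 80% and 11 in between. Of the 35 cytosines of Slc22a2, 22 lay between 20 and 80%, 13 over 80% and 0 under 20%. At the gene starts, the mean level of the covered cytosines within 1000 bp was 54.5% ± 3.56 in CSDS and 46.9% ± 2.55 in Control libraries for Slc22a2 (SD, n = 3 each, as for all such values). It was 15.8% ± 2.81 in CSDS and 20.2% ± 2.60 in Control libraries for Igf2r. For Airn the values were 9.56% ± 3.77 in CSDS and 15.1% ± 5.13 in Control libraries. For Slc22a3 they were 10.02% ± 2.63 in CSDS and 13.5% ± 1.00 in Control libraries. In both groups the Slc22a2 start was thus the highest of the 4 and lay outside the range of the others in every library, and the Airn start overlapped with both the Igf2r and the Slc22a3 start. With each cytosine weighted equally, the Igf2r start was above the Slc22a3 start within each of the 6 libraries. Over libraries their ranges overlapped in CSDS and not in Control. This order depended on the weights. With all reads of a window counted together it was reversed in Control replicate 1 (12.5% for Igf2r, 13.1% for Slc22a3). It held in the other libraries, by little in CSDS replicate 1 (11.88% and 11.82%). No covered cytosine lay within 1000 bp of the far end of any member.

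**Figure D1:**
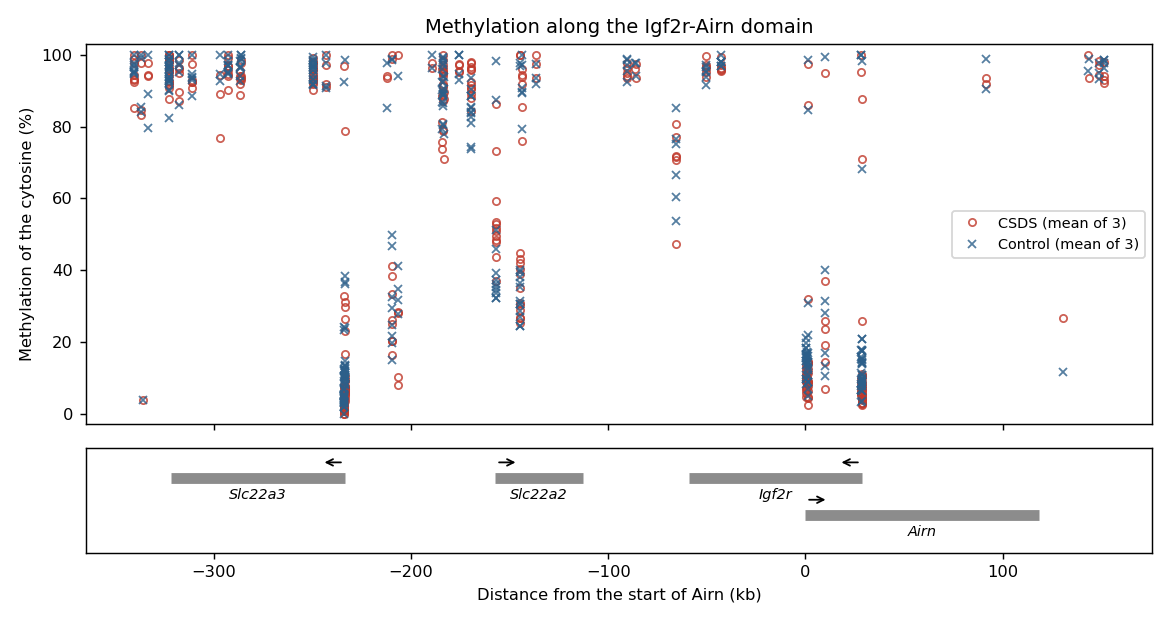
Mean methylation (%) of each of the 356 measured cytosines of the domain window against its distance from the start of Airn (kb), with CSDS as open circles, Control as crosses and the member genes drawn below. The starts of Slc22a3, Airn and Igf2r sit low, the gene interiors of Slc22a3 sit near 94.3% in CSDS and 95.9% in Control, and the Slc22a2 start sits near 54.5% in CSDS and 46.9% in Control.

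The 12 measured cytosines at the Slc22a2 start lay 178 to 458 bp inside the gene, at chr17:12584367-12584647. Their mean level was 58.2%, 54.3% and 51.1% in CSDS replicates 1 to 3, against 49.4%, 44.3% and 47.0% in Control replicates 1 to 3. All 3 CSDS libraries were above all 3 Control libraries, by a mean of 7.61 points. Such a separation in the higher direction was seen in 0.644% of the 24535 gene-end windows of the genome, and since the window was chosen for this contrast nothing is read from that share. Each library had 640 to 908 readings here, summed over the 12 cytosines, so a read that crosses several cytosines counts several times. Counting all readings together, the methylated share was 56.4% (95% Wilson interval 52.5 to 60.2%), 53.5% (49.7 to 57.2%) and 49.2% (45.5 to 52.8%) in CSDS replicates 1 to 3. In Control replicates 1 to 3 it was 41.6% (38.3 to 45.0%), 42.3% (39.1 to 45.5%) and 44.0% (40.7 to 47.4%). The intervals cover counting error only and treat readings from the same read as independent, so they are too narrow. Even so, that of CSDS replicate 3 overlapped that of Control replicate 3.

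Within the Slc22a2 start, 10 of 12 cytosines were higher and 2 lower in CSDS libraries. The 3 forward-strand cytosines 259, 272 and 310 bp from the start carried the widest of the higher differences. At 259 bp the level was 63.2%, 48.0% and 48.8% in CSDS replicates 1 to 3, against 39.6%, 27.8% and 40.7% in Control replicates 1 to 3, a difference of 17.3 points. At 272 bp it was 57.9%, 50.7% and 50.0% in CSDS, against 31.1%, 32.7% and 39.3% in Control, a difference of 18.5 points. At 310 bp it was 54.7%, 50.7% and 47.0% in CSDS, against 23.1%, 30.2% and 43.3% in Control, a difference of 18.6 points. At each of the 3, every CSDS library was above every Control library, and the same held for the forward cytosine at 208 bp, where the difference was 16.2 points. The cytosine at 179 bp, on the reverse strand, went the other way, with 89.5%, 81.5% and 87.5% in CSDS against 100%, 97.8% and 97.3% in Control. It was the strand with fewer reads of a split CpG, of the kind described below. That strand averaged 92.3% over all libraries, against 44.4% on the forward strand. The forward cytosine at 315 bp, only 5 bases from one of the cytosines with a higher level, had 78.9%, 69.7% and 71.1% in CSDS against 94.4%, 75.6% and 92.3% in Control, so its groups overlapped. These last 2 were the cytosines of the window that averaged over 80%, and without them the difference was 11.8 points.

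**Figure D2:**
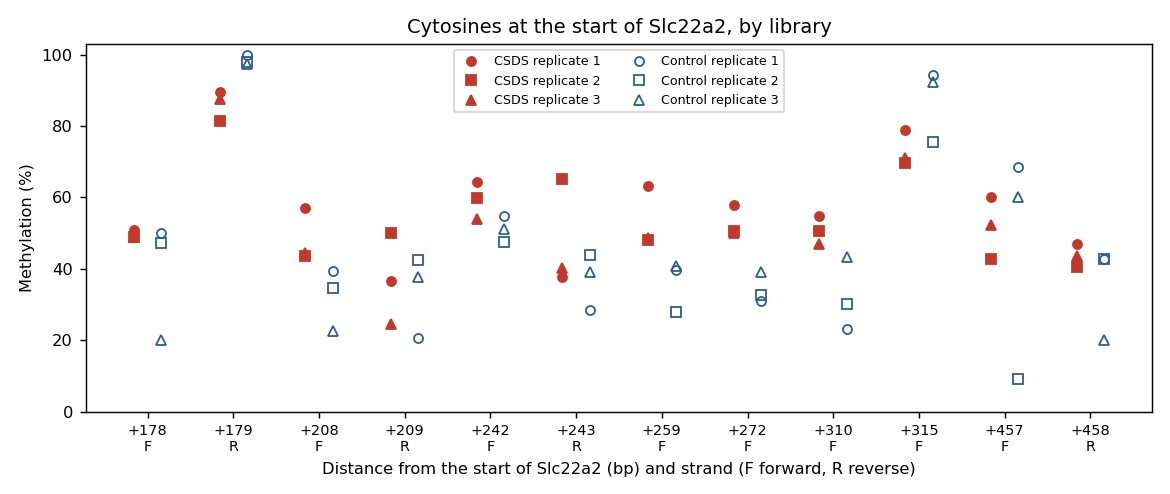
Methylation (%) of the 12 cytosines at the Slc22a2 start in each library, by distance from the start (bp) and strand, with filled CSDS markers left of open Control markers. The groups were apart with CSDS higher at 208, 259, 272 and 310 bp, and with CSDS lower at 179 bp, on the strand with fewer reads of a split CpG.

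The 2 strands of the window did not give the same size of difference. Forward-strand cytosines alone differed by 10.1 points and the 4 reverse-strand cytosines alone by 2.59 points. At the CpG 208 bp from the start, the reverse strand had 36.7%, 50.0% and 24.6% in CSDS against 20.6%, 42.4% and 37.6% in Control, and the groups overlapped, unlike on the forward strand. At 5 further cytosines of the window that some libraries of both groups listed, 1 was higher and 4 were lower in CSDS, most with few reads and in few libraries.

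Deeper in Slc22a2 the groups overlapped. The 23 cytosines of the interior averaged 65.7%, 63.45% and 58.8% in CSDS replicates 1 to 3, against 61.7%, 62.0% and 60.1% in Control replicates 1 to 3, a difference of 1.42 points. The interior held a second stretch of intermediate level, from 12326 to 12431 bp inside the gene, where the differences of single cytosines ran from -3.82 to 11.9 points. No cytosine of the interior had its groups apart. Over all 35 cytosines Slc22a2 averaged 59.9% ± 3.51 in CSDS and 56.3% ± 1.00 in Control libraries.

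Set against other windows, the difference at the Slc22a2 start stood at the upper tail, as its choice implies. Of 24535 gene-end windows, 33 had a larger difference. Among the 790 windows with a mean level of 40 to 60%, 143 were higher in CSDS, 5 had a difference at least as large as that of Slc22a2, itself included, and the median difference was -3.05 points. The window whose profile over the 6 libraries was most like it among 15054 candidates was an end of Col6a2, a collagen VI gene, with 34.6%, 30.5% and 27.0% in CSDS against 26.1%, 24.96% and 25.6% in Control (Pearson r = 0.953 over 6 libraries, as a description). The next were the predicted genes Gm32759 (r = 0.940) and Gm20548 (r = 0.866), whose levels were between 87.0% and 100% in every library. Candidates held at least 10 cytosines and spanned at least 5 points over the libraries.

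**Figure D3:**
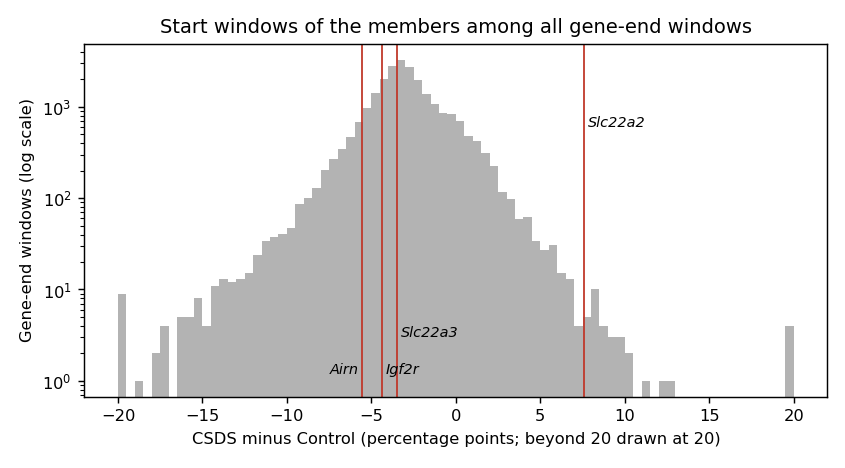
Number of gene-end windows (log scale) by CSDS minus Control difference (percentage points), with the start windows of the 4 members marked. Slc22a2 lies at +7.61 points, and Slc22a3, Igf2r and Airn lie at -3.46, -4.38 and -5.57 points among the bulk of windows.

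At the start of Airn, where the imprint is controlled, all 19 measured cytosines averaged under 20% and the groups overlapped. They lay 288 to 995 bp inside Airn, at chr17:12741599-12742306. The level was 13.3%, 9.57% and 5.79% in CSDS replicates 1 to 3, against 11.2%, 20.9% and 13.3% in Control replicates 1 to 3, a difference of -5.57 points (exact two-sided permutation p = 0.3, where 0.1 is the smallest p that 3 against 3 allows). The highest value belonged to Control replicate 2, which had 492 readings summed over the cytosines of the window, against 1030 to 1629 in the other 5 libraries. Without Control replicate 2 the difference was -2.67 points, and without CSDS replicate 3, the lowest, it was -3.68 points. The window most like it was shared by Trim23, Trappc13 and Shld3 (Pearson r = 0.994 over 6 libraries and 41 cytosines), with 14.6%, 9.87% and 7.40% in CSDS against 13.1%, 21.7% and 14.7% in Control. Of 4 further cytosines at the Airn start listed in both groups but not in all 6 libraries, CSDS was lower at 4, with 1 of them resting on 1 library of each group. Of 22 such cytosines at the Igf2r start, CSDS was higher at 10 and lower at 12, and of 4 at the Slc22a3 start it was higher at 2 and lower at 1.

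The Igf2r start was low in every library. Its 37 cytosines lay from -130 to 501 bp of the start, at chr17:12769205-12769836, in DNA that Airn also crosses. They averaged 18.5%, 12.9% and 16.2% in CSDS replicates 1 to 3, against 18.3%, 19.2% and 23.2% in Control replicates 1 to 3, a difference of -4.38 points with overlapping groups (exact permutation p = 0.2). Without CSDS replicate 2 it was -2.89 points and without Control replicate 3 it was -2.90 points. At 8 of the 37 cytosines CSDS was higher. One of them, on the reverse strand 82 bp before the start, was higher in all 3 CSDS libraries, with 90.0%, 86.7% and 86.4% against 56.2%, 81.1% and 67.4% in Control, and had a median of 21 reads. Its forward partner, read far more deeply, averaged 25.8% in CSDS and 20.9% in Control libraries. Between the Airn and Igf2r starts, a cluster of 7 cytosines at chr17:12751283-12751364 averaged an intermediate level, 31.6% ± 5.07 in CSDS and 34.2% ± 1.71 in Control libraries. Its mean was raised by a split CpG at chr17:12751283, with 97.2% on the strand with fewer reads and 16.1% on the other. Over all 92 cytosines Igf2r averaged 27.05% ± 3.06 in CSDS and 30.7% ± 1.73 in Control libraries (exact permutation p = 0.2). Airn, over its 82 cytosines, averaged 18.5% ± 3.17 in CSDS and 22.6% ± 1.84 in Control libraries (exact permutation p = 0.2).

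The Slc22a3 start, with 54 cytosines from -444 to 342 bp of the start at chr17:12507362-12508148, was also low. It had 13.1%, 8.48% and 8.52% in CSDS replicates 1 to 3, against 13.4%, 14.5% and 12.5% in Control replicates 1 to 3, a difference of -3.46 points (exact permutation p = 0.2). CSDS replicates 2 and 3 were low, while CSDS replicate 1 lay among the Control libraries. The interior of Slc22a3 was the opposite in level. Its 53 cytosines averaged 93.6%, 93.95% and 95.3% in CSDS, against 95.6%, 97.0% and 95.02% in Control (difference -1.62 points, exact permutation p = 0.2). Over the whole gene, all 3 CSDS libraries (52.9%, 50.8% and 51.5%) were below all 3 Control libraries (54.1%, 55.4% and 53.4%). The mean difference was -2.55 points, at the smallest p that this design allows (exact permutation p = 0.1). This p was the lowest of the regions tested, which overlap, and is unadjusted. Groups apart with CSDS lower were found at the gene ends of 32.4% of 19916 measured genes. They were also apart over all cytosines, where the highest CSDS level was 42.6% and the lowest Control level 43.1%.

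**Figure D4:**
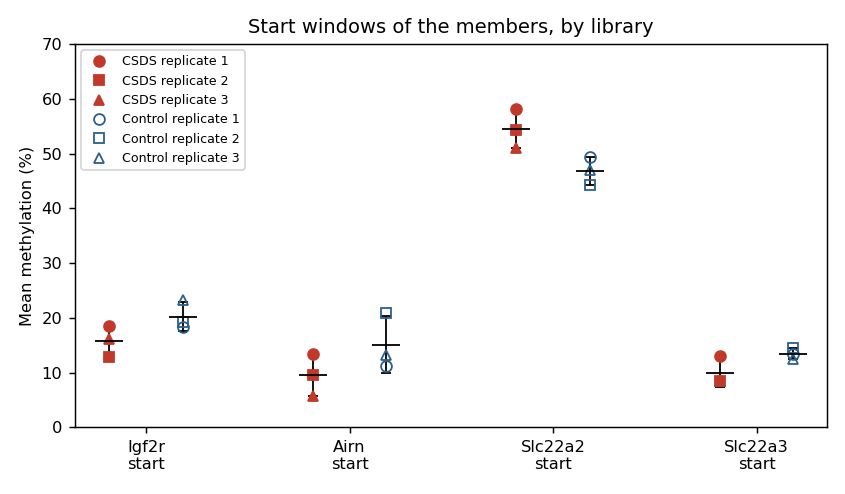
Mean methylation (%) of the start windows of Igf2r, Airn, Slc22a2 and Slc22a3, with 1 marker per library and CSDS left of Control. The groups are apart for Slc22a2 (54.5% in CSDS, 46.9% in Control) and overlap for Igf2r (15.8% and 20.2%), Airn (9.56% and 15.1%) and Slc22a3 (10.02% and 13.5%).

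CSDS replicates 2 and 3, with the lowest mitochondrial shares of C, had the lowest levels at the Igf2r, Airn and Slc22a3 starts. In the interior of Slc22a3 the lowest level was instead that of CSDS replicate 1 (93.6%). Subtracting each library's mitochondrial share in proportion left differences of -1.44 points at the Igf2r start (exact permutation p = 0.5), -2.46 points at the Airn start (exact permutation p = 0.8) and -0.16 points at the Slc22a3 start (exact permutation p = 1.0). Over the whole of Slc22a3 it left -0.86 points (exact permutation p = 0.4). For Slc22a2, which ran against the genome-wide direction, the same step gave a difference of 10.3 points at the start. The mitochondrial share is an upper bound and can subtract too much. In Control replicate 3 it was 10.04%, above the 8.11% of the tile at chr17:12507001-12507500 in the Slc22a3 start. The corrected differences and their p-values are therefore a description, and the cause of the lower values was not tested.

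A second feature of these tables was a split between the strands of a CpG. Of 141 CpGs of the domain window with both strands measured, 15 had strands more than 40 points apart, 12 of them in the members. In all 15 the strand with fewer reads was the more methylated one. Of these CpGs, 2 lay in a RefSeq promoter, both in a CCGG sequence. Over all RefSeq promoters, where the deeper strand was under 20%, the thinner strand of 11786 CpGs in CCGG had a median of 94.8% and was over 80% in 64.5%, while the thinner strand of 91415 other CpGs had a median of 6.22% and was over 80% in 0. Leaving out the thinner strand of the split CpGs gave 51.6% in CSDS and 42.2% in Control libraries at the Slc22a2 start (difference 9.41 points). At the Igf2r start the same step gave 7.05% in CSDS and 11.6% in Control libraries (difference -4.53 points).

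**Figure D5:**
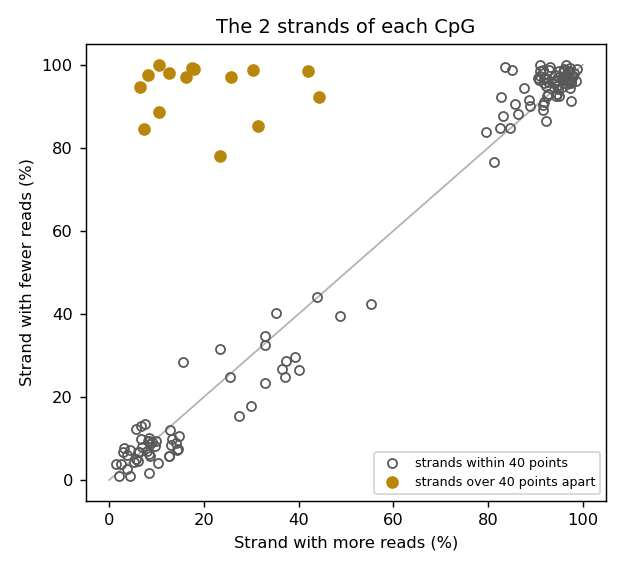
Methylation (%) of the strand with fewer reads against that of the strand with more reads for the 141 CpGs of the domain window with both strands measured. The 15 CpGs with strands more than 40 points apart all lie above the diagonal.

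Tested across the genome, no tested tile of the domain and no tested member cytosine outside Slc22a2 was called. Methylated and unmethylated reads were compared per 500 bp tile by a quasi-binomial F test with limma's moderated dispersion and Benjamini-Hochberg adjustment, and a tile was called at an adjusted p under 0.05 and a difference of at least 10 points. Of 37 tiles of the domain window 32 were tested, and those with cytosines of Slc22a2 were given no test. Among the untested was the tile at chr17:12584001-12584500, higher in CSDS by 10.1 points. Of 18 tested tiles with member cytosines outside Slc22a2, 0 were called, beside a background of 0.159% of tiles. An unadjusted p under 0.05 was found for 4 of the 18, beside 14.1% of all tiles, and limma on log2 ratios of reads called 0 and had 3 at an unadjusted p under 0.05. Those 0 calls carry little weight, since limma recovered 0.0% of simulated tiles shifted by 25 points. The shifted tiles were of intermediate level and of high read count where enough were available, with a fixed spread between libraries not taken from these data. Recovery at the low and high levels of most member tiles outside Slc22a2 was not simulated. CSDS was lower in 15 of the 18, with a median difference of -2.28 points, while 73.7% of all tiles were lower with a median of -1.70 points. The groups were apart with CSDS lower in 3 of the 18, beside 15.7% of all tiles, and with CSDS higher in 0, beside 1.81%. Of 200 tested member cytosines outside Slc22a2, 0 were called, beside a background of 0.0269%, and 23 had an unadjusted p under 0.05, beside 10.8% of all cytosines. CSDS was apart and lower at 22 of these 201 cytosines, beside 10.6% of all, and apart and higher at 2, beside 1.74% of all.

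The member tile with the lowest adjusted p covered the Igf2r start. This tile, at chr17:12769501-12770000 with 27 cytosines, averaged 12.5% ± 3.23 in CSDS and 17.9% ± 3.62 in Control libraries, a difference of -5.41 points (quasi-binomial F test, adjusted p = 0.227). A tile inside Slc22a3, at chr17:12444001-12444500, had 84.1%, 82.5% and 93.8% in CSDS against 97.5%, 95.4% and 94.7% in Control at 3 cytosines. There the groups were apart with CSDS lower by a mean of 9.03 points, without passing the test (quasi-binomial F test, adjusted p = 0.303). At the Slc22a3 start, the tile at chr17:12507001-12507500 averaged 7.14% ± 1.68 in CSDS and 9.59% ± 1.39 in Control libraries (quasi-binomial F test, adjusted p = 0.308). In the methylated 3′ part of Igf2r, the tile at chr17:12690501-12691000 had 97.0% ± 2.59 in CSDS and 95.7% ± 2.32 in Control libraries, the other direction by 1.29 points and within the spread.

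Lists of related genes were counted beside all genes, without a test of the lists. They were drawn up with earlier results known, and each gene was taken at its gene end with more covered cytosines. Over all 19916 measured genes, 92.2% were lower in CSDS and the median difference was -3.25 points. Of 8 measured neighbours of the domain among 10 listed, 5 were lower and 3 higher, with a median of -1.51 points. Among them, Tcp1, a chaperonin subunit, had 16.9% ± 3.20 in CSDS and 21.5% ± 1.49 in Control libraries, and Sod2, the mitochondrial superoxide dismutase, had 10.4% ± 1.93 in CSDS and 14.7% ± 1.26 in Control libraries. Of 8 measured genes of the transporter list (SLC22 and related SLC47 genes) among 26 listed, 7 were lower, with a median of -2.96 points; Slc47a1 and Slc47a2 share 1 window. Of 16 measured genes of insulin-like growth factor signalling among 20 listed, 15 were lower and 1 higher, with a median of -3.30 points. Insr, the insulin receptor, differed by -5.74 points there, and Grb10, an imprinted adaptor of that receptor, by -4.94 points; Grb10 is also in the next list. Of 9 measured genes with an imprint that sperm lack, among 11 listed, 8 were lower and 1 higher, with medians of 13.5% in CSDS and 17.8% in Control libraries. The quasi-binomial F test called 0 genes in each of the 4 lists of related genes, beside a background of 0.408% of windows. Unadjusted p under 0.05 was found for 1 neighbour, 2 transporter genes, 6 growth factor genes and 3 imprinted genes, beside 29.7% of windows, and limma called 0 of them, having recovered 15.5% of simulated windows shifted by 25 points.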

How the data were processed

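Genomic DNA of male germ cells was sequenced from Zymo-Seq RRBS libraries, per the labels' protocols. Trim Galore 0.5.0, Bismark 0.20.0 and GRCm38 are named in the submitters' processing notes. Per the file headers, the deposited values are a read count (coverage) for each cytosine and the percent of its reads with C or with T. The authors' percent values times the count were whole reads throughout, and no listed cytosine has a coverage under 10. Handling of duplicates and the conversion rate are not given in the sources used here.

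Of 2210988 cytosines listed in all 6 libraries, 3424 in the top 0.1% of coverage of a library were left out. Strands were kept apart. Genes and promoters are RefSeq entries of GRCm38.p6, which give no exons here. Region levels give each cytosine the same weight; groups were compared by two-sided exact permutation. The Benjamini-Hochberg adjustment over regions that the design had planned was not made, since the regions were chosen with results known. That choice limits the permutation p-values as well. They are unadjusted and come from regions that overlap, so they are a description. Tiles of 500 bp and windows of 1000 bp either side of a gene end, with at least 3 cytosines each, and single cytosines were fitted by a quasi-binomial model of group (R 4.3.3), with the dispersion moderated by limma 3.58.1 and held at 1 or above, an F test and adjustment over all features. The moderation follows a trend on coverage. This was chosen after a version without the trend failed on simulated data, where the version with it recovered 93.0% of 200 tiles, 99.0% of 200 windows and 82.5% of 200 cytosines shifted by 25 points; limma recovered 0.0%, 15.5% and 0.0% of them. The simulation shifted only features of intermediate level, and of high read count where enough were available. It used a fixed spread between libraries that was not estimated from these data. With such a spread the dispersion rises with coverage by construction, which favours a model with the trend. The simulation therefore cannot decide between the versions for these data, and no recovery rate without the trend is given here. Its recovery rates may not hold for low or high features. Limma on the log2 ratio of methylated to unmethylated reads (pseudocount 1) was an alternative, with and without a replicate block. Other alternatives were coverage of at least 20, 1 strand, summed reads, medians, tile and window widths, a mitochondrial correction and each library left out. Other work used Python 3.11.15, numpy 2.4.6, pandas 2.3.3, scipy 1.17.1 and matplotlib 3.10.9. In the domain, tiles were named by the lowest p in each direction, and genes of a list by the size of their difference. The members and lists were chosen with earlier results of these data known. The values of 1 listed gene are not reported here.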

Additional observations from a re-analysis of the deposited data

How the results depend on the processing

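The difference at the Slc22a2 start was 7.61 points with equal weights, 9.91 at a coverage of at least 20, 10.4 with summed reads, 2.59 on the reverse strand alone and 11.8 without the cytosines over 80%, a choice made after seeing the data. Leaving out each library in turn gave 5.78 to 9.33 points. Over all of Slc22a2 it was 3.54 points, 10.1 by the median over cytosines and 1.91 (without CSDS replicate 1) to 5.40 (without CSDS replicate 3) with each library left out. The Airn start gave -7.53 to -2.67 points with each library left out, and the Igf2r start -5.68 to -2.89 points. The causes were not tested.

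Genome-wide calls moved more. Tiles called numbered 259, then 391 without the minimum difference, 164 at a coverage of at least 20, and 162 to 2603 with each library left out. Gene-end windows called numbered 100, then 427, 43 and 38 to 441 under the same changes. Cytosines called numbered 588, then 16 at a coverage of at least 20 and 0 to 4 with each library left out. Limma, and the model without the coverage trend, called 0 tiles, 0 windows and 0 cytosines. Without CSDS replicate 1, 2603 tiles were called, none of them a member tile outside Slc22a2, where the lowest adjusted p of the quasi-binomial F test was then 0.00324, against 0.227 with all libraries. In the 3 member start windows outside Slc22a2 it was then 7.48e-05, against 0.153 with all libraries, and 3 of 3 had an unadjusted p under 0.05, against 2 of 3. The features with these adjusted p-values under 0.05 were not called because their differences were under 10 points. No setting called a member tile, window or cytosine outside Slc22a2.

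Replicate numbers occur in both groups, and the labels do not say whether they pair the samples. Deviations of same-numbered libraries from their group mean correlated by -0.036, -0.035 and 0.004. These correlations are over single cytosines, which carry counting noise, so they cannot decide whether equal numbers share a batch. The replicate block in limma called 0 tiles, 77 windows and 0 cytosines. At the Slc22a2 start, the mean difference of same-numbered libraries equals the difference of group means by arithmetic (7.61 points). It therefore says nothing about pairing.

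The Slc22a2 start rests on 640 to 908 readings per library, summed over its cytosines, and the Airn start on 492 such readings in Control replicate 2.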

Other observations

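Outside the members, 2 stretches of the domain window differed more than their surroundings. At chr17:12571581-12571751, upstream of Slc22a2, 12 cytosines had 92.3%, 92.9% and 92.4% in CSDS replicates 1 to 3, against 85.1%, 78.4% and 89.2% in Control replicates 1 to 3. All CSDS libraries were higher there, by a mean of 8.31 points, and its tile had the lowest adjusted p of the tested tiles of the domain without passing (quasi-binomial F test, adjusted p = 0.174). At chr17:12534547-12534584, between Slc22a3 and Slc22a2, 5 cytosines of intermediate level had 38.2%, 28.9% and 37.6% in CSDS, against 49.0%, 46.0% and 42.6% in Control, lower in all CSDS libraries by a mean of 10.9 points. An adjacent cluster of 10 cytosines at chr17:12531685-12531797, also intermediate, had 41.96% ± 4.02 in CSDS and 43.7% ± 1.76 in Control libraries, within the spread. Split CpGs raised the means of both clusters of intermediate level, the higher strand having fewer reads. At chr17:12534583 the strands had 97.0% and 25.7%. At chr17:12531685 they had 98.9% and 17.9%, and at chr17:12531796 they had 99.2% and 17.6%. The 2 stretches that differed more than their surroundings were singled out after their values were seen.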
